A study of Homo sapiens with 9 samples.

Results

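The genes described here are ATG9B and 9 further core autophagy genes, ATG9A, ULK1, BECN1, ATG14, WIPI1, ATG2A, ATG16L1, MAP1LC3B and GABARAPL1. They are 10 of the 60606 genes in a table of expression values and were found by their symbols. ATG9B was selected on its measured TPM, high in the GSC libraries and low in the libraries of both other lines. Its own values are therefore given as a description and carry no test. The other 9 were included for what they do, but earlier results of these data were known when they were chosen. Their p-values and counts are to be read with that limit. All 10 had a mean above 1 TPM (a transcript level scaled to gene length and to a fixed total of 1000000 per library) over the 9 libraries, the limit for testing, and ATG9B passed it through 1 cell line alone.

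RNA of 3 related glioblastoma cell lines was sequenced, with 3 libraries per line, to compare a radioresistant cell model with its parent. U87, an established human glioblastoma line, was grown in medium with serum. GSCs are stem cells derived from U87, kept without serum on EGF and bFGF and irradiated repeatedly to select for radioresistance. Diff cells are the progeny of these irradiated GSCs, differentiated in serum and grown on from cells picked out of clonal communities. Irradiation, selection and medium therefore change together between U87 and GSCs. Differentiation, medium and the picking of cells from clonal communities change together between GSCs and Diff. Irradiation, selection, that picking and passage through the GSC state change together between U87 and Diff. Within each comparison these cannot be told apart. The labels number the libraries of each line but do not say that they came from separate cultures, so the p-values measure the spread between these libraries, which may be technical.

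Autophagy is the route by which a cell encloses part of its cytoplasm in a double membrane, the autophagosome, and delivers it to the lysosome for digestion. The ULK1 kinase starts the process, vesicles that carry ATG9 supply the first membrane, a lipid kinase complex with BECN1 and ATG14 marks the site, WIPI and ATG2 proteins bring lipid to it, and the ATG16L1 complex attaches small proteins of the ATG8 family (LC3 and GABARAP proteins) to the growing membrane. Tumour cells are known to use the pathway under starvation, hypoxia and treatment. Transcript levels describe the machinery and do not measure how much material passes through it.

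The upstream sequence of ATG9B is shown because its level set the GSCs apart, and that of ATG14 because, of the other 9 genes, its levels followed those of ATG9B most closely over the libraries. The runs are the 250 bases before the transcription start in RefSeq (GRCh38.p14), chr7:151024500-151024749 on the minus strand for ATG9B and chr14:55411831-55412080 on the minus strand for ATG14, written from 5′ to 3′. Capitals mark TGANTCA, the binding motif of AP-1 factors, in ATG9B and CACGTG, the E-box at the core of the motif bound by TFEB and its relatives, in ATG14.
ATG9B: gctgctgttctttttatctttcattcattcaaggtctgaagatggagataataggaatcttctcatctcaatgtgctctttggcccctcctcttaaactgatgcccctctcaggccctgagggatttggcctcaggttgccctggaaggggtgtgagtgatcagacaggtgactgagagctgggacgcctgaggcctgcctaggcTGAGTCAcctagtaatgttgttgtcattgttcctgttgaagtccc
ATG14: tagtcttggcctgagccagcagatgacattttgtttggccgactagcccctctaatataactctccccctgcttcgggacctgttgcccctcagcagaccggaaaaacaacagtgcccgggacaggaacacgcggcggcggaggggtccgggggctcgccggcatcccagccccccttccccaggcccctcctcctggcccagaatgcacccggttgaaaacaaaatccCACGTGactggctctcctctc
The AP-1 motif lay 45 bases before the start of ATG9B and was present in 6.57% of 35116 RefSeq promoters of the same length, and the E-box lay 21 bases before that of ATG14 and was present in 6.34%. A cAMP response element (TGACGTCA, in 1.65% of promoters) was found 30 bases before the start of GABARAPL1, and the FOXO motif TGTTTAC (2.98%) in none of the 10. Each of the first 3 motifs was thus present in 1 of the 10 genes; both strands were searched, the motifs did not overlap, and they were chosen after these letters had been seen. The last 28 bases of the ATG14 run are exonic in GENCODE 29. So are 199 of the 250 bases searched for GABARAPL1, all 250 for MAP1LC3B and smaller parts for some other members. The ATG9B run held 50% G and C and 1 CpG, against 62.8% and 22 for its paralog ATG9A and medians of 58% and 11 over all promoters. These matches are descriptions of letters and not of binding.

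Before the members are described, some facts of the libraries bear on them. GSCs replicate 3 stood somewhat apart, with median absolute log2 differences of 0.235 and 0.270 to the other GSC libraries, against 0.132 to 0.159 in every other pair within a line. RN7SL1, a non-coding RNA, took 5.73% to 9.79% of TPM and mitochondrial genes 25.9% to 31.8%. Of 5 glioma stem cell markers, PROM1 and SOX2 stayed under 1 TPM in all 9 libraries, at 0.379 to 0.596 and 0.809 to 0.994 TPM in GSCs, above every library of U87 and Diff. FABP7 rose from a mean of 0.731 TPM in U87 to 4.91 TPM in GSCs and 2.86 TPM in Diff (log2 fold changes 1.77 and 1.16, limma adjusted p = 2.66e-05 and 0.000483), NES fell in GSCs from 33.0 to 22.6 TPM (-0.53, adjusted p = 0.00047), and OLIG2 did not pass between GSCs and U87 (0.23, adjusted p = 0.225). The summed level of the 5 was 35.5 to 39.9 TPM in GSCs, 39.1 to 43.1 in U87 and 21.3 to 22.7 in Diff.

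ATG9B, the less widely expressed of the human ATG9 proteins, which move lipids between the leaflets of a membrane, was abundant in GSCs and close to absent elsewhere. It was measured at 0.259, 0.180 and 0.138 TPM in U87, at 30.8, 32.2 and 25.1 TPM in GSCs, and at 0.562, 0.575 and 0.451 TPM in Diff cells. All GSC libraries lay far above the others, and the Diff libraries lay above the U87 libraries without overlap, both under 1 TPM. The means were 0.192 ± 0.0613, 29.4 ± 3.80 and 0.529 ± 0.0678 TPM (SD, n = 3), a ratio of 153 between GSCs and U87 and of 2.75 between Diff and U87. On the log2(TPM + 1) scale, which understates changes from low levels, GSCs exceeded U87 by 4.67 and Diff by 4.31, and Diff exceeded U87 by 0.36. The difference was the 44th highest of 22909 genes with a mean over 1 TPM in GSCs against U87, and the 5th lowest in Diff against GSCs. In RNA of whole cultures, more cells with ATG9B and more ATG9B RNA per cell cannot be told apart.

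A rise in GSCs that was gone in Diff was found in a small share of genes. A gene is named called below where its log2 fold change passed 1 in size and its adjusted p was under 0.05. Of the genes tested, 701 (3.06%) were called higher in GSCs than in both other lines, and 529 (2.31%) of the genes tested also showed no called difference between Diff and U87. ATG9B met these criteria by its selection.

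ATG9A, the paralog expressed in nearly all cell types, went the other way. Its levels were 61.2, 61.0 and 59.0 TPM in U87, 33.8, 32.4 and 30.9 TPM in GSCs, and 31.1, 31.7 and 34.3 TPM in Diff. Every U87 library was above every GSC and Diff library, while GSCs and Diff overlapped. ATG9A fell by 0.88 on the log2 scale in GSCs (SE 0.0582, limma adjusted p = 4.09e-06) and by 0.88 in Diff (adjusted p = 6.06e-06), and Diff and GSCs differed by 0.00 (adjusted p = 0.986). The sum of both paralogs was 60.6 ± 1.22 TPM in U87, 61.7 ± 4.99 in GSCs and 32.9 ± 1.64 in Diff. ATG9B made up 0.316% of it in U87, 47.5% ± 2.56 in GSCs and 1.62% in Diff. Of the exon bases of ATG9A, 38.8% also belong to AC068946.2 on the same strand, a gene listed at no more than 0.224 TPM in any library. How reads in these bases were counted was not examined here, and strand cannot separate them. The level of ATG9A may therefore be understated, and the sum of the paralogs and the share of ATG9B are uncertain with it.

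ATG9B lies on chromosome 7 at 151012209-151024499 of GRCh38 (GENCODE 29, minus strand), tail to tail with NOS3, the endothelial nitric oxide synthase, at 150990995-151014588 on the plus strand. The 2 genes share 786 exon bases in 4 stretches between 151012351 and 151014304, 12.3% of the exon bases of ATG9B and 13.2% of those of NOS3. The shared stretches hold 0 coding bases of ATG9B and 619 of NOS3. The libraries were made with a kit that keeps strand, but the strand setting of the read counting is not given in the sources used here, so reads in these stretches cannot be assigned to either gene with certainty.

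NOS3 had the same order of levels as ATG9B, highest in GSCs and lowest in U87, but was above 5 TPM in Diff. It was measured at 0.127, 0.0729 and 0.0213 TPM in U87, 42.2, 49.8 and 37.5 TPM in GSCs, and 5.37, 5.18 and 5.95 TPM in Diff, with no overlap between any lines. NOS3 rose by 5.35 in GSCs (log2, adjusted p = 1.55e-08) and by 2.60 in Diff (adjusted p = 8.96e-07) relative to U87, and was lower by 2.76 in Diff than in GSCs (log2 fold change -2.76, adjusted p = 1.82e-06). The ratio of ATG9B to NOS3 was 0.730, 0.648 and 0.669 in the GSC libraries and 0.105, 0.111 and 0.0759 in the Diff libraries. If NOS3 reads were spread evenly over its exons and those in the shared stretches were also counted for ATG9B, they would give ATG9B 5.31 TPM in GSCs, below its 29.4 TPM, and 0.676 TPM in Diff, above its 0.529 TPM. Read coverage was not analysed here, so the even spread is an assumption, and the part of NOS3 reads in the ATG9B values was not tested.

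Markers of endothelial cells, in which NOS3 is best known, were examined beside it. Their summed level was 17.3 to 20.2 TPM in GSCs, 4.52 to 7.31 in U87 and 4.79 to 5.89 in Diff. Of the 4 markers, 3 were tested. VWF, a blood clotting factor of endothelial cells, rose from 0.527 ± 0.213 TPM in U87 to 11.4 ± 0.566 in GSCs (log2 fold change 3.03, adjusted p = 4.64e-07), PECAM1 rose from 2.77 ± 0.935 to 6.25 ± 0.868 (0.97, adjusted p = 0.0056), and the receptor gene TEK fell from 2.41 ± 0.523 to 1.12 ± 0.390 (-0.69, adjusted p = 0.0187). CDH5, the cadherin that defines endothelial junctions, was not tested and stayed at or under 0.465 TPM in all 9 libraries. How the levels of these markers relate to that of ATG9B was not tested.

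The next genes along the chromosome did not show changes of this size. Of the 5 nearest genes over 1 TPM on each side, 9 remain when NOS3 is set apart. Their log2 fold changes in GSCs against U87 ran from -0.09 (SLC4A2, an anion exchanger, limma adjusted p = 0.386) to 2.20 (GIMAP2, adjusted p = 3.16e-05). Their median was 0.60, beside 0.02 over all genes, and 8 of 9 were above 0. ABCB8, a mitochondrial transporter that starts near ATG9B, was at 29.9 ± 1.02 TPM in U87, 42.8 ± 3.92 in GSCs and 49.9 ± 0.855 in Diff. In Diff against U87 the 9 ran from -0.43 (ASIC3, an acid-sensing ion channel, adjusted p = 0.0541) to 1.80 (REPIN1, adjusted p = 1.22e-07). Their median was 0.82, beside -0.04 over all genes.

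The genes whose levels most resembled ATG9B over the 9 libraries were ACP7, MROH2A, PIK3R6, L3MBTL1 and BPIFC, with Pearson's r from 0.997 to 0.999 on the log2 scale among 12181 protein-coding genes. Since the libraries form 3 groups of 3, r here mostly compares group means. MROH2A, PIK3R6 and BPIFC passed the limit of 1 TPM through GSCs alone, as ATG9B did. Their high r is thus in part fixed by that filter and by the selection of ATG9B. PIK3R6, a regulatory subunit of a phosphoinositide 3-kinase, had levels near those of ATG9B, at 0.0282 ± 0.0489, 31.6 ± 0.458 and 0.375 ± 0.230 TPM in U87, GSCs and Diff. ACP7, an acid phosphatase, was at 35.2 ± 0.635, 122.7 ± 8.98 and 37.4 ± 0.985 TPM. NOS3 ranked 739th with r = 0.906. Among the other 9 autophagy genes r was 0.964 for ATG14, 0.807 for WIPI1, 0.582 for ATG2A, 0.575 for GABARAPL1 and 0.0892 for MAP1LC3B, and it was negative for ATG16L1 (-0.31), ULK1 (-0.33), ATG9A (-0.55) and BECN1 (-0.74).

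Outside ATG9B, 4 of the 9 genes (ATG14, WIPI1, ATG2A and GABARAPL1) rose and 1 (ATG9A) fell in GSCs against U87 at an adjusted p under 0.05, where 48.6% of all genes tested passed, 25.3% higher and 23.3% lower. The 4 that rose were also called, where 17.1% of all genes were, 9.52% of all genes upward, and the libraries of 5 did not overlap, as for 55.8% of all genes. In Diff against U87, 5 rose and 1 fell (39.4% of all genes passed, 18.9% higher and 20.5% lower), 3 were called, all higher (12.3%, and 5.92% higher), and 7 did not overlap (55.2%). In Diff against GSCs, 0 rose and 2 fell (34.8%, with 15.0% higher and 19.8% lower), 0 were called (8.01%), and 4 did not overlap (46.7%). The median log2 fold changes of the 9 were 0.24, 0.31 and 0.00, beside 0.02, -0.04 and -0.06 over all genes. Without GSCs replicate 3, the library that stood apart, the numbers of called genes were again 4, 3 and 0, and ATG9B exceeded U87 by 4.77 and Diff by 4.41 in the other GSC libraries.

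ULK1, the kinase that receives nutrient and energy signals from mTORC1 and AMPK, did not pass the test in any comparison. It was measured at 48.7, 45.2 and 44.8 TPM in U87, 42.8, 48.6 and 32.4 TPM in GSCs, and 44.5, 45.1 and 39.1 TPM in Diff. The 3 lines overlapped, with the lowest value in GSCs replicate 3. The log2 fold changes were -0.18, -0.11 and 0.07 for GSCs against U87, Diff against U87 and Diff against GSCs (SE 0.132, limma adjusted p = 0.305, 0.564 and 0.725).

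BECN1, the scaffold of the lipid kinase complex, stayed between 11.3 and 13.6 TPM in all libraries. Its levels were 13.1, 11.5 and 13.2 TPM in U87, 11.7, 11.5 and 11.3 TPM in GSCs, and 13.2, 13.6 and 13.2 TPM in Diff, where the Diff libraries lay above the GSC libraries. The difference between Diff and GSCs was 0.20 (adjusted p = 0.072) and fell under the threshold with each of 3 other scalings (adjusted p from 0.0225 to 0.048). Of the exon bases of BECN1, 17.1% lie opposite CNTD1 or PSME3, and PSME3, a proteasome activator, was at 118 TPM in U87, 84.0 in GSCs and 107.8 in Diff. If PSME3 reads were spread evenly and counted without strand, they would give BECN1 5.54 TPM in U87, 3.93 in GSCs and 5.04 in Diff. The part of such reads in the BECN1 values and in their difference between Diff and GSCs was not tested.

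ATG14, the subunit that directs this complex to autophagosome formation, was highest in GSCs. TPM of ATG14 was 17.8, 18.9 and 16.6 in U87, 42.4, 38.5 and 46.7 in GSCs, and 24.0, 21.8 and 21.2 in Diff. No library of one line overlapped those of another, and Diff lay nearer to U87 than to GSCs. ATG14 rose by 1.21 in GSCs (SE 0.0876, adjusted p = 6.87e-06) and fell by 0.90 from GSCs to Diff (adjusted p = 0.000111). The rise of 0.31 in Diff against U87 (adjusted p = 0.0199) did not pass without U87 replicate 1, U87 replicate 3 or Diff replicate 1 (adjusted p = 0.0542, 0.0709 and 0.0722).

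WIPI1, which binds the lipid made by that kinase on the forming membrane, was the most abundant of the 10 genes in GSCs. The libraries gave 45.8, 52.3 and 43.0 TPM in U87, 180.1, 169 and 159 TPM in GSCs, and 108, 109 and 107 TPM in Diff. The lines did not overlap, and Diff lay between U87 and GSCs. WIPI1 rose by 1.83 in GSCs (SE 0.0761, adjusted p = 2.81e-07) and by 1.19 in Diff (adjusted p = 4.96e-06), and fell by 0.64 from GSCs to Diff (adjusted p = 0.000328). Within the family of 4 WIPI genes, WIPI1 supplied 26.6% of the summed TPM in U87, 56.6% in GSCs and 46.3% in Diff, while the share of WDR45B went from 51.9% to 24.7% and 29.5%. Of the exon bases of WIPI1, 24.3% lie opposite ARSG, whose mean of 12.2 TPM in GSCs would give WIPI1 2.97 TPM if counted without strand.

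ATG2A, the lipid transfer protein that works with WIPI proteins, rose in both GSCs and Diff. Levels of ATG2A were 27.0, 26.5 and 23.0 TPM in U87, 60.7, 71.4 and 58.2 TPM in GSCs, and 61.6, 62.0 and 60.1 TPM in Diff. U87 lay below all others, and GSCs and Diff overlapped. The log2 fold changes against U87 were 1.28 in GSCs (adjusted p = 5.25e-06) and 1.24 in Diff (adjusted p = 9.54e-06), and Diff differed from GSCs by -0.05 (SE 0.0883, adjusted p = 0.735).

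ATG16L1, which sets the place where ATG8 proteins are attached, was at 19.9, 17.9 and 19.5 TPM in U87, 17.7, 19.7 and 20.5 TPM in GSCs, and 23.6, 20.8 and 22.6 TPM in Diff. U87 and GSCs overlapped, and the Diff libraries lay above both. The excess of Diff was 0.22 over U87 (adjusted p = 0.0624) and 0.20 over GSCs (adjusted p = 0.0861). Both passed with each of 3 other scalings, at adjusted p from 0.015 to 0.0286.

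MAP1LC3B, the LC3 protein most used to mark autophagosomes, was at 73.0, 81.2 and 64.4 TPM in U87, 79.7, 79.5 and 100.2 TPM in GSCs, and 103, 95.1 and 98.4 TPM in Diff. Diff lay above U87 without overlap, while GSCs overlapped both. It rose in Diff by 0.44 (SE 0.109, adjusted p = 0.0115), and the differences of 0.24 between GSCs and U87 and of 0.20 between Diff and GSCs did not pass (adjusted p = 0.0987 and 0.196). The first passed without U87 replicate 2 (adjusted p = 0.0495) and the second without GSCs replicate 3 (adjusted p = 0.0319).

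GABARAPL1, of the GABARAP branch of the family, was at 7.89, 7.36 and 6.81 TPM in U87, 17.3, 18.6 and 20.5 TPM in GSCs, and 19.7, 17.7 and 17.3 TPM in Diff. As for ATG2A, U87 lay below all others and GSCs and Diff overlapped. It rose by 1.24 in GSCs (SE 0.0906, adjusted p = 7.2e-06) and by 1.20 in Diff (adjusted p = 1.3e-05), and Diff differed from GSCs by -0.04 (adjusted p = 0.763). Summed over 7 ATG8 genes, TPM was 139.8 ± 7.42 in U87, 176 ± 12.9 in GSCs and 186 ± 7.71 in Diff, and the share of GABARAPL1 was 5.26%, 10.7% and 9.80%. MAP1LC3B held the largest share in each line, at 52.0%, 48.9% and 53.2%. GABARAP itself was listed at no more than 0.968 TPM, and 55.7% of its exon bases are shared with other genes. Its level is therefore uncertain, and with it the sums and shares of the family.

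**Figure D1:**
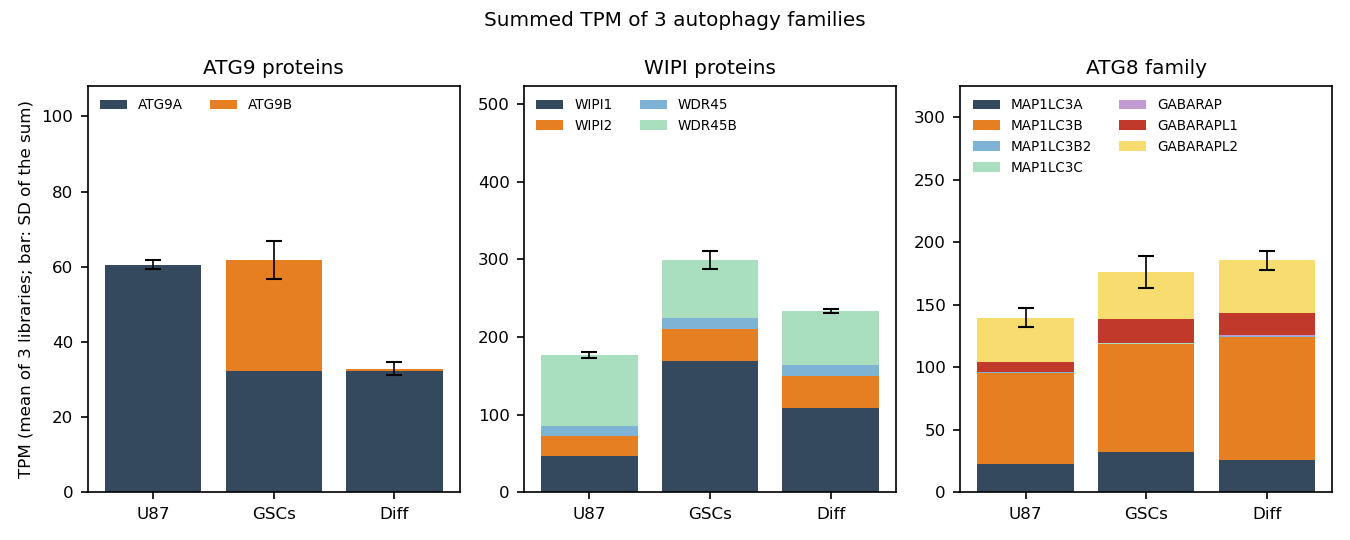
Mean TPM of the ATG9, WIPI and ATG8 paralogs in each line, stacked by gene on a linear axis from 0, with whiskers for the SD of the sum (n = 3 per line). ATG9B supplies 47.5% of the listed ATG9 TPM in GSCs, and WIPI1 56.6% of the listed WIPI TPM.

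Compared with each other per gene length, the 10 genes changed places between lines. In U87 the order of mean TPM was MAP1LC3B, ATG9A, WIPI1, ULK1, ATG2A, ATG16L1, ATG14, BECN1, GABARAPL1 and ATG9B, in which WIPI1 and ULK1, and ATG16L1 and ATG14, overlapped. In GSCs it was WIPI1, MAP1LC3B, ATG2A, ATG14, ULK1, ATG9A, ATG9B, ATG16L1, GABARAPL1 and BECN1, in which ATG14 and ULK1, ULK1 and ATG9A, ATG9A and ATG9B, and ATG16L1 and GABARAPL1 overlapped. In Diff it was WIPI1, MAP1LC3B, ATG2A, ULK1, ATG9A, ATG14, ATG16L1, GABARAPL1, BECN1 and ATG9B, in which ATG14 and ATG16L1 overlapped. ATG9B was thus last in U87 and Diff, and in GSCs its libraries overlapped those of ATG9A, whose level is uncertain because of its shared exon bases.

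A wider list of 93 autophagy genes placed these results in the pathway, and 88 of them besides ATG9B could be tested. In GSCs against U87, 29 rose and 20 fell (55.7%, against 48.6% of all genes) and 14 were called (15.9%, against 17.1%). In Diff against U87, 34 rose and 14 fell (54.5%, against 39.4%) and 13 were called (14.8%, against 12.3%). In Diff against GSCs, 24 rose and 16 fell (45.5%, against 34.8%) and 5 were called (5.68%, against 8.01%). The medians were 0.07, 0.17 and 0.08.

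By role, the called genes of the early machinery were the members already described. None of the ULK complex (4 tested), the ATG12 and ATG8 conjugation genes (7 tested) or the ATG4 proteases (4 tested) was called in any comparison, where 17.1%, 12.3% and 8.01% of all genes were, so that lists of this size would hold few called genes at the background share. Among 13 cargo receptors, 6 rose and 4 fell in GSCs and 7 rose and 3 fell in Diff, relative to U87, beside 25.3% of all genes higher and 23.3% lower in GSCs and 18.9% higher and 20.5% lower in Diff. BNIP3 and BNIP3L, which mark mitochondria for digestion and are known targets of hypoxia signalling, fell in both lines. BNIP3 was at 283 ± 17.4 TPM in U87, 47.7 ± 5.20 in GSCs and 14.8 ± 1.15 in Diff (log2 fold changes -2.55 and -4.17 against U87, adjusted p = 1.17e-07 and 2.45e-08), and BNIP3L was at 244 ± 11.6, 114 ± 16.9 and 50.0 ± 4.61 TPM (-1.09 and -2.27). RETREG1, a receptor for the endoplasmic reticulum, was called higher in GSCs (1.48, adjusted p = 1.19e-05), and SQSTM1, the p62 receptor of ubiquitin-marked cargo, was called higher in Diff, from 77.8 ± 15.0 TPM in U87 to 165 ± 11.1 (1.09, adjusted p = 0.000256).

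Of 15 genes for fusion with the lysosome, 8 rose, 1 fell and 6 did not pass in GSCs against U87 (25.3% of all genes rose and 23.3% fell), and 9 rose, 0 fell and 6 did not pass in Diff against U87 (18.9% and 20.5% of all genes). PLEKHM1, an adaptor that links autophagosomes to late endosomes, was at 19.3 ± 2.40 TPM in U87, 72.4 ± 4.55 in GSCs and 58.3 ± 1.14 in Diff (1.86 and 1.56, adjusted p = 6.06e-07 and 2.6e-06). VPS41, a subunit of the HOPS tethering complex, was at 27.3 ± 1.77, 67.8 ± 11.2 and 75.9 ± 5.82 TPM (1.27 and 1.44, adjusted p = 2.36e-05 and 1.6e-05). VPS18, of the same complex, and EPG5, another tethering factor, were called in Diff (1.23 and 1.10).

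Among 18 regulators of mTORC1 and AMPK, the 3 called genes in GSCs and in Diff against U87 were DDIT4, SESN2 and SESN3, inhibitors of mTORC1, and all were lower. They made 16.7% of the list in each comparison, beside 17.1% of all genes called in GSCs and 12.3% in Diff. DDIT4, which is induced by hypoxia and stress, was at 622 ± 82.7 TPM in U87, 127 ± 31.3 in GSCs and 32.3 ± 5.92 in Diff, and 41.2% of its exon bases lie opposite another gene. SESN2, a leucine sensor, was at 147 ± 13.5, 18.8 ± 3.10 and 43.6 ± 2.71 TPM (log2 fold changes -2.91 and -1.73 against U87, adjusted p = 2.39e-07 and 7e-06), and SESN3 was at 4.80 ± 0.440, 0.376 ± 0.0458 and 0.199 ± 0.0591 TPM. SESN3 passed the limit of 1 TPM for testing through U87 alone. Its place among the 3 called genes, and the direction of its call, thus follow in part from that filter. The other inhibitors of mTORC1 in the list, named after their values were seen, moved in different directions. TSC1 rose in GSCs (0.40, adjusted p = 0.00321) and Diff (0.49, adjusted p = 0.00147), and TSC2 (0.35, adjusted p = 0.017) and SESN1 (0.43, adjusted p = 0.0129) rose in Diff. AKT1S1 fell in GSCs (-0.66, adjusted p = 2.45e-05) and did not pass in Diff (0.10, adjusted p = 0.235), and DEPTOR passed in neither (-0.19 and 0.12, adjusted p = 0.436 and 0.664). In this list 3 genes rose and 5 fell in GSCs (44.4% passed, beside 48.6% of all genes), and 6 rose and 5 fell in Diff (61.1%, beside 39.4%).

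Of the 6 transcription factors, FOXO1 was called higher in GSCs (1.44, adjusted p = 0.000203) and MITF lower. These made 33.3% of the list, beside 17.1% of all genes called. In Diff against U87, 0 were called, beside 12.3% of all genes. On the adjusted p alone, FOXO1 (0.71, adjusted p = 0.013) and MITF (0.46, adjusted p = 0.0161) rose in Diff. TFE3 (-0.31, adjusted p = 0.00334) and ZKSCAN3 (-0.43, adjusted p = 0.035) fell there, beside 18.9% of all genes higher and 20.5% lower. MITF, a relative of TFEB, was at 4.11 ± 0.484 TPM in U87, 0.509 ± 0.0332 in GSCs and 6.01 ± 0.399 in Diff. TFEB and TFE3, named after their values were seen because they are the best known activators of autophagy genes, fell in GSCs by 0.75 and 0.54 on the log2 scale (adjusted p = 0.00337 and 0.000108), from 3.41 ± 0.447 to 1.62 ± 0.255 TPM and from 142 ± 7.54 to 97.2 ± 5.56 TPM.

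**Figure D2:**
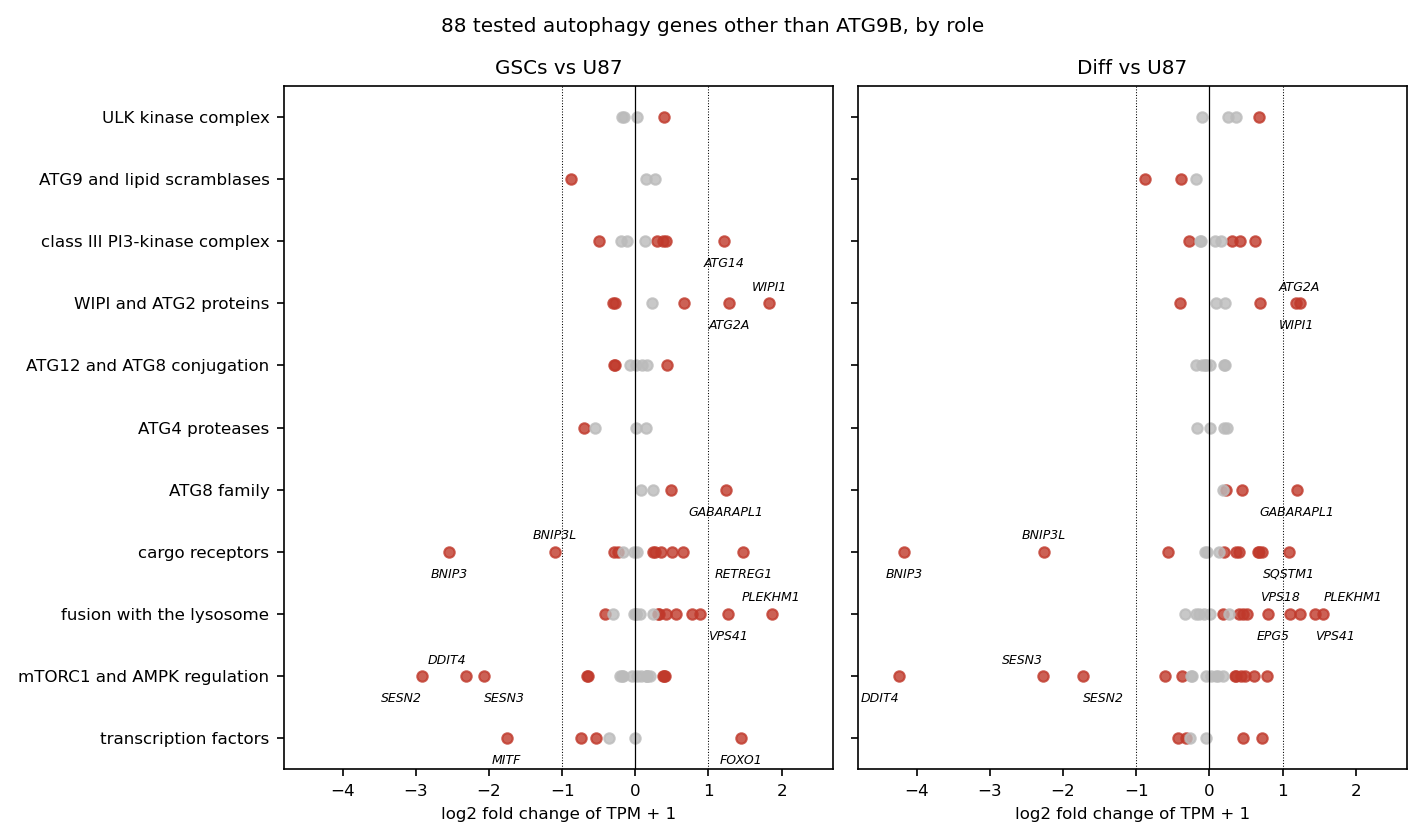
Log2 fold change of TPM + 1 against U87 for the 88 tested autophagy genes other than ATG9B, 1 point per gene, in rows by role. Red points passed an adjusted p under 0.05 and grey points did not, dotted lines mark a log2 fold change of 1 in each direction, and called genes are named; 14 are called in GSCs and 13 in Diff.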

How the data were processed

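The samples are 9 RNA libraries, 3 each of U87, GSCs and Diff cells. The authors deposited log2(TPM + 1) for 60606 genes, and transformed back every library summed to 1000000 TPM. The submitters' processing notes name FastQC 0.11.9, Trimmomatic 0.39, HISAT2 2.2.1, featureCounts 2.0.5, R 4.2.0 and GRCh38; the annotation and strand setting are not given in the sources used here. The sample records describe removal of ribosomal RNA and directional paired-end libraries, whereas the study's methods describe selection on oligo(dT) beads. TPM keeps no depth, so depth is unknown and precision rests on the spread between libraries.

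The test was the moderated linear model of limma 3.58.1 (R 4.3.3), with an intensity trend and a pseudocount of 1, fitted once to all 9 libraries over the 22909 genes with a mean over 1 TPM, with Benjamini-Hochberg adjustment over all genes in each of the 3 comparisons. A call required both an adjusted p under 0.05 and a log2 fold change beyond 1 in either direction. The members, the lists and the wider set of genes were chosen with earlier results of these data known. Genes named are the members and their paralogs, genes sharing their exons, the 5 nearest on each side of ATG9B, up to 4 called genes per list, comparison and direction, the 5 most correlated with ATG9B, and markers. Neuronal and immune markers summed to at most 5.91 and 3.32 TPM, and astrocytic and mesenchymal ones to 882 to 2071 TPM. Positions are from GENCODE 29 and promoters from RefSeq, matched by symbol for all 10 members. No shared effect of replicate number was seen, as the 9 correlations of same-numbered deviations ran from -0.042 to 0.049. These values cannot show whether same-numbered libraries were cultured or prepared together, which the labels do not state. Tables were made with pandas 2.3.3 and figures with matplotlib 3.10.9, under Python 3.11.15.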

Additional observations from a re-analysis of the deposited data

How the results depend on the processing

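Alternatives covered other scalings, pseudocounts, filters, the variance model, the samples in the fit, the replicate block and fits that lacked a single library. On the adjusted p alone, 49, 48 and 40 of the 88 listed genes passed in GSCs against U87, Diff against U87 and Diff against GSCs, in place of 14, 13 and 5 called. With the replicate block the counts of called genes were 14, 13 and 5, and 4, 3 and 0 among the members, and it changed no call; 4 of 18 best matches were to the library of the same number. Without single libraries the counts ran from 13 to 14, 12 to 13 and 5 to 6 for the list, and stayed at 4, 3 and 0 for the members.

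For ATG9B, the log2 difference of GSCs to U87 was 5.17 after RN7SL1 and the mitochondrial genes were removed and TPM rescaled, 4.51 with quantile normalization, and 6.67 and 5.43 with pseudocounts of 0.1 and 0.5. That of GSCs to Diff was 4.65, 5.55 and 4.85 with the rescaling and the same pseudocounts. That of Diff to U87 was 0.52 with the rescaling, 0.18 with quantile normalization, and 1.12 and 0.57 with the pseudocounts. Without single libraries the 3 differences ran from 4.60 to 4.77, 4.24 to 4.41 and 0.33 to 0.40. A smaller pseudocount raises the difference of a low gene by construction, and the cause of the other shifts was not tested.

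The sign turned in 14 values of members, all with a limma adjusted p of 0.443 or above. For ATG16L1 in GSCs against U87 the log2 fold change was -0.00079 with the rescaling, -0.0053 with median-ratio scaling, -0.032 with quantile normalization, -0.029 without U87 replicate 2 and -0.028 without GSCs replicate 3, with 0.071 as the highest value without a library. In Diff against GSCs, GABARAPL1 was at 0.019, 0.0016 and 0.025 with these scalings and 0.019 without GSCs replicate 3, ATG2A at 0.018 with the rescaling and 0.042 without GSCs replicate 2, ATG9A at -0.030 without GSCs replicate 3 and -0.040 without Diff replicate 3, and ULK1 at -0.090 without GSCs replicate 3. The other ends of their ranges without single libraries were -0.096 for GABARAPL1, -0.10 for ATG2A, 0.033 for ATG9A and 0.19 for ULK1. No scaling moved the median of all genes by over 0.1. Of the other values of single members, 482 kept their direction and side of the threshold, 14 passed it and 3 no longer did. The unknown depth leaves levels under 1 TPM, such as ATG9B in U87 and Diff, without a counting error.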
